A study of Mus musculus with 4 samples.

Results

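The nuclear genes for the mitochondrial respiratory chain were examined in fetal livers of the mouse at E14.5, on 4 arrays. The genes were those whose symbol starts with Nduf, Uqcr, Cox4, Cox5, Cox6, Cox7, Cox8 or Atp5, together with Sdha, Sdhb, Sdhc, Sdhd and Cyc1, without pseudogenes. Of 97 such genes in the RefSeq annotation, 92 had a probe matched by its transcript, out of 22905 genes with a named probe. Where a gene had several probes, the brightest one stands for it. Complex I held 35 of these genes, complex II 4, complex III 9, complex IV 19 and complex V 17, and 8 were assembly factors with an Nduf name. The 5 genes for which no probe was matched were Cox5b, Ndufa6, Ndufb1, Ndufb4b and Ndufb4c. None of the mitochondrial transcripts themselves had a named probe, so only the nuclear share of each complex is described.

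The dams were C57BL/6J mice, fed during gestation either a control diet (CD) with 4.3% of its energy as fat or a high-fat diet (HFD) with 60%. Liver RNA of fetuses from CD-fed dams was hybridised to 2 arrays and that of fetuses from HFD-fed dams to 2, all labelled as female. The sources do not give how many fetuses or dams stood behind an array, so p-values measure only the spread between these samples, which may be partly technical.

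Respiratory chain complexes sit in the inner mitochondrial membrane. Complexes I and II pass electrons from NADH and succinate to coenzyme Q, complex III passes them to cytochrome c, and complex IV passes them to oxygen. The proton gradient that complexes I, III and IV build up drives ATP synthesis by complex V. Most subunits are encoded in the nucleus, by genes scattered over the chromosomes that share regulators such as the transcription factors NRF1, GABP and YY1 and the coactivator PGC-1α. A few subunits of complex IV come in alternative isoforms, of which one is used in most tissues and the other in muscle, in germ cells or under low oxygen.

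Levels are given as log2 of the probe signal relative to the 75th percentile of the probes of the same array, so that a level of 0 equals that percentile, and array values always run in the order CD replicate 1, CD replicate 2, HFD replicate 1, HFD replicate 2. The arrays lay on 1 slide, and between 65.4% and 70.0% of their spots were well above background. Over all tested probes the CD arrays stood further apart (SD of the difference 0.58 on the log2 scale) than the HFD arrays (0.34) or any CD array from any HFD array (0.42 to 0.50). Transcripts of the sex chromosomes went against the female label on the replicate 1 arrays only. The Y-linked Ddx3y had a log2 level of -1.56, -7.67, -1.22 and -7.82, and it was well above background on the replicate 1 arrays only. Xist, made by the inactive X chromosome, had a log2 level of -8.29, -0.65, -6.84 and -0.74, and it was well above background on the replicate 2 arrays only. Eif2s3y, Kdm5d and Uty followed Ddx3y. Each diet therefore had 1 array of either kind, and differences between arrays of the same number are given beside the pooled ones.

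Promoters of the members were read from RefSeq (assembly GRCm38.p6), as windows of 300 bases from 250 before to 50 after the annotated start. A window was found for 74 of the 92 genes, 79 windows in all. They were searched on both strands for the letters CGCATGCG (the core of the NRF1 site), CCGGAAG (the core of the ETS and GABP site) and AAGATGGC (the core of the YY1 site). The end of the ETS and GABP core and the start of the YY1 core share the letters AAG and can overlap, and each motif was counted on its own. A few windows are shown as examples, chosen after the values of their genes were seen, because pairs with the same motif stood at opposite ends of the members' behaviour on the CD arrays. In the Ndufa8 and Uqcrc1 windows the capitals mark the NRF1 core, in those of Ndufs6 and Ndufs7 the YY1 core, and in that of Atp5j all of these cores.
Ndufa8 (chr2:36049289-36049588, minus strand): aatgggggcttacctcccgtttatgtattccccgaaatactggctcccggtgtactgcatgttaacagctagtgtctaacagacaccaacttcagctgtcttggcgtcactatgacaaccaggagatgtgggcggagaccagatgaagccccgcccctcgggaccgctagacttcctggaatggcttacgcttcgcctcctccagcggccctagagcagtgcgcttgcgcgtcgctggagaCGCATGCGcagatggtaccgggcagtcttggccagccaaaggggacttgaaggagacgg
Uqcrc1 (chr9:108936398-108936697, plus strand): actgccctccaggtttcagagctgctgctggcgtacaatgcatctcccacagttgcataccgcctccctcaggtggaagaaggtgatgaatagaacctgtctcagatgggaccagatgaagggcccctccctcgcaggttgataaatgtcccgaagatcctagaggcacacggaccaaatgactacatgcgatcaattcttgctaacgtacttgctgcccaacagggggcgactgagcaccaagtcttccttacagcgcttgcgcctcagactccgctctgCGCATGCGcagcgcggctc
Ndufs6 (chr13:73328433-73328732, minus strand): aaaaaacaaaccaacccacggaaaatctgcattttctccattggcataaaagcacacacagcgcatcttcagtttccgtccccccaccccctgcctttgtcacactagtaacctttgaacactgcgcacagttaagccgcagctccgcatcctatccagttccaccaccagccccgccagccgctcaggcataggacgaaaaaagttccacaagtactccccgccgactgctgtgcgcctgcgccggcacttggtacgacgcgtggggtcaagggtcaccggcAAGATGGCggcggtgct
Ndufs7 (chr10:80249199-80249498, plus strand): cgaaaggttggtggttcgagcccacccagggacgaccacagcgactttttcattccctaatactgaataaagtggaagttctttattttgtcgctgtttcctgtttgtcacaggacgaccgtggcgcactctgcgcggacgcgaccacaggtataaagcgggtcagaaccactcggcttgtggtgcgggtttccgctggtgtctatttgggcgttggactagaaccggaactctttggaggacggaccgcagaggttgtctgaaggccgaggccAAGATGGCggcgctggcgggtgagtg
Atp5j (chr16:84834927-84835226, minus strand): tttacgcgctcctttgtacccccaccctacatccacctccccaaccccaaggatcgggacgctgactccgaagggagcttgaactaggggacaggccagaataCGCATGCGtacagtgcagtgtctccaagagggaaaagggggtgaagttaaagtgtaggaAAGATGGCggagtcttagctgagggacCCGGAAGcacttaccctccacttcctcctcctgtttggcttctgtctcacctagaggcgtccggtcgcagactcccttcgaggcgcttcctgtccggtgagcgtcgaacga
The NRF1 core was present in 13.9% of the members' windows (11 of 79) and in 1.87% of all 32851 windows. The ETS and GABP core was present in 24.1% of the members' windows (19) against 8.86% of all, and the YY1 core in 13.9% (11) against 2.75%. Of the short cores of the hypoxia response element, ACGTG was present in 24.1% of the members' windows (19) and 19.62% of all, and GCGTG in 54.4% (43) and 32.39%. The last letter of the first can be the first letter of the second, and CACGTG holds the first on both strands. These are matches of letters and not measured binding.

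A signal well above background on every array was measured for 90 of the 92 genes. Cox8c, a testis isoform of a complex IV subunit, was well above background on none and did not pass the filter on low signal, which left 91 members for the test. Cox7b2, a testis-type relative of Cox7b, was well above background on 1 array. The tested members lay on 19 chromosomes, 3 of them (Ndufa1, Ndufb11 and Cox7b) on the X. The signal of 69 of the 91 fell in the brightest 1819 of the 18188 tested genes, the top of 10 equal classes by signal.

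No respiratory chain gene passed the test between the diets. With limma, 0 of 91 members had an unadjusted p under 0.05 in either direction, while 1.37% of all tested genes did so with a higher level in the HFD arrays and 1.46% with a lower one. The lowest unadjusted p of a member by limma was 0.0854, for Ndufa8, and the adjusted p of every member was 1.00. The methods' t-test, which takes each gene's spread from its own 4 arrays, was run on the same values. It put 11 of 91 members under 0.05, all higher in the HFD arrays, against 4.86% of all tested genes in that direction. With Welch's correction it put 4 of 91 there, all higher, against 2.41% of all genes. All of them had an adjusted p of at least 0.937. Over all 41332 tested probes, 318 (0.769%) were past both cutoffs of a fold change of 2 and an unadjusted p of 0.05, and no member was among them. None of these probes (0.0%) had an adjusted p under 0.05, with 1383 at an unadjusted p under 0.05, and none had one by the t-test either. With normexp background correction 1 probe did, and without HFD replicate 1 there were 6, no member among them. The exact permutation test of 2 against 2 arrays cannot go below a two-sided p of 0.333 for a single gene.

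The members' differences were small and mostly of one sign. The HFD mean was above the CD mean for 82 of 91 members, with a median log2 difference of 0.13, which is a 1.09-fold difference, against 0.04 over all tested genes. This was 90.1% of the members, against 57.6% of all tested genes and 79.0% of the other genes in the brightest class. With quantile normalization, the members' median was 0.06 and that of all genes 0.0067. The differences ran from -0.37 for Cox7b2 to 0.38 for Cox6c. A typical member had an SE of 0.18 and a 95% interval reaching 0.48 to either side. For 87 members this interval stayed inside a 2-fold change in either direction, and for 13 inside a 1.5-fold change. In bulk RNA, fewer cells of a type and less RNA per cell cannot be told apart.

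**Figure D1:**
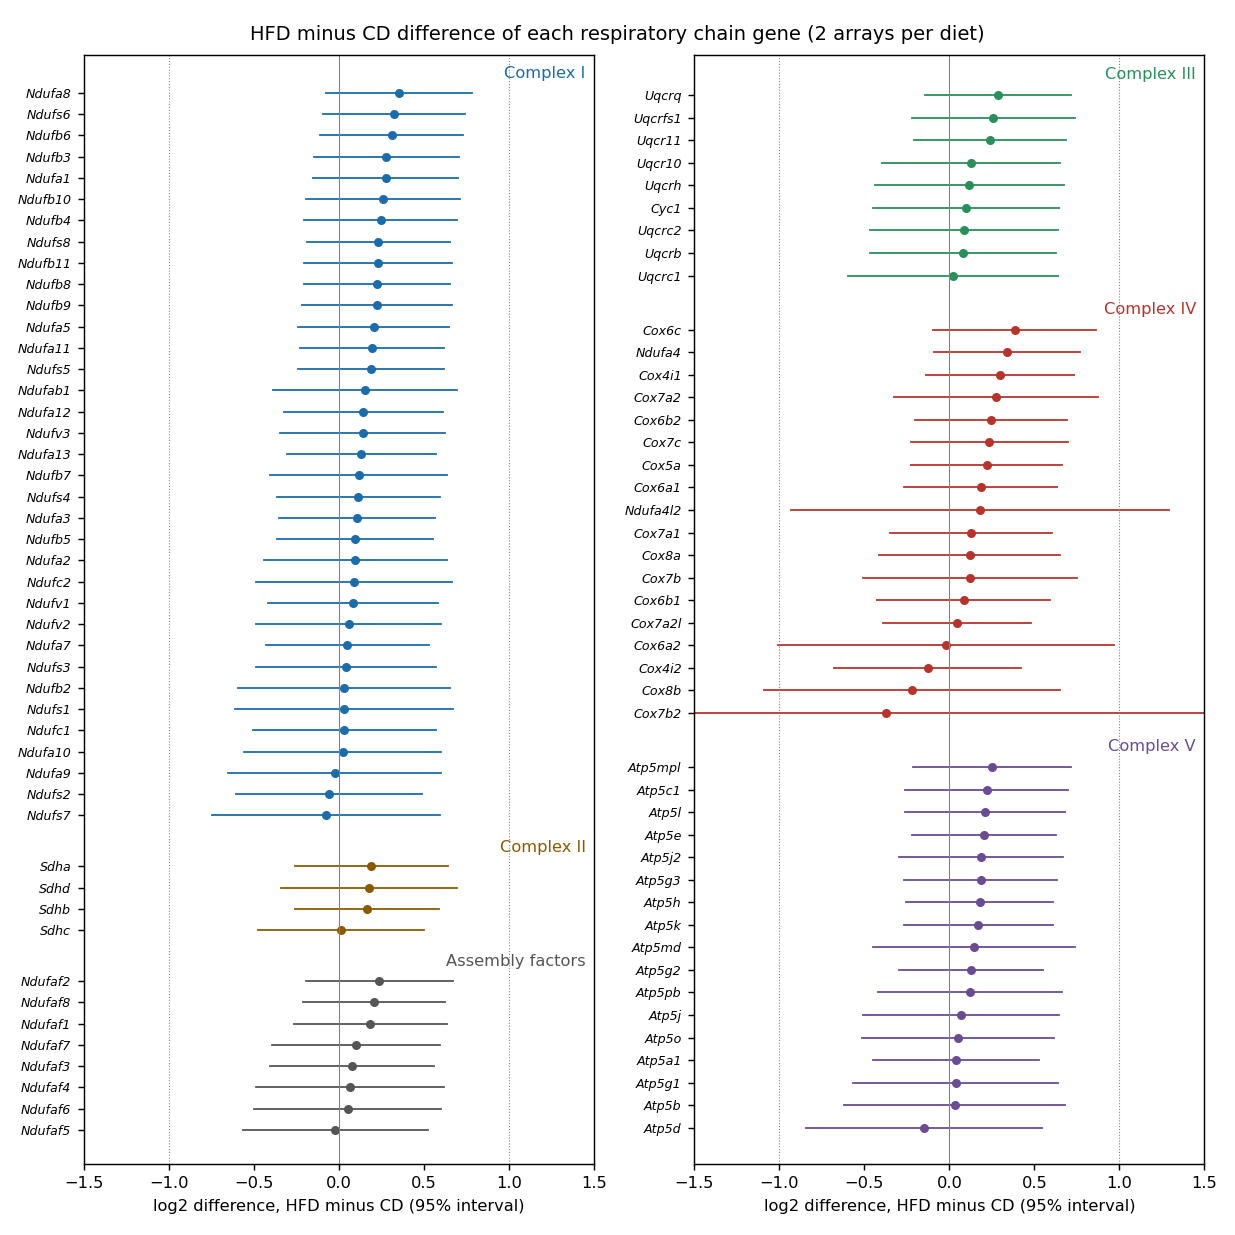
Log2 difference between the diets (HFD minus CD, x axis) of each of the 91 tested respiratory chain genes, by complex. Points are the difference of the means of 2 arrays per diet, and bars the 95% intervals of the limma fit (that of Cox7b2 runs off the axis). Every bar crosses 0, and 82 of 91 points lie to the right of it, between 0 and 0.38. Dotted lines mark a 2-fold change.

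Across the arrays, CD replicate 1 was the lowest of the 4 for 82 of 91 members, and for 42.7% of all tested genes. Taken as deviations from each gene's own mean over the arrays, the median over the members was -0.19, 0.05, 0.07 and 0.07 on the log2 scale. In these medians CD replicate 2 lay beside the HFD arrays and not beside its own group. Gene by gene, it was the highest of the arrays for 40 of 91 members. For 36 it lay above CD replicate 1 and below both HFD arrays. The HFD arrays differed by a median of only 0.04 (absolute log2 difference) per member and the CD arrays by 0.27, and the CD gap was the larger for 86 of 91 members. Over all 18188 tested genes the same medians were 0.10 and 0.32, with the CD gap larger for 14187. Among the 1750 other genes of the brightest class they were 0.05 and 0.26, with the CD gap larger for 1557.

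**Figure D2:**
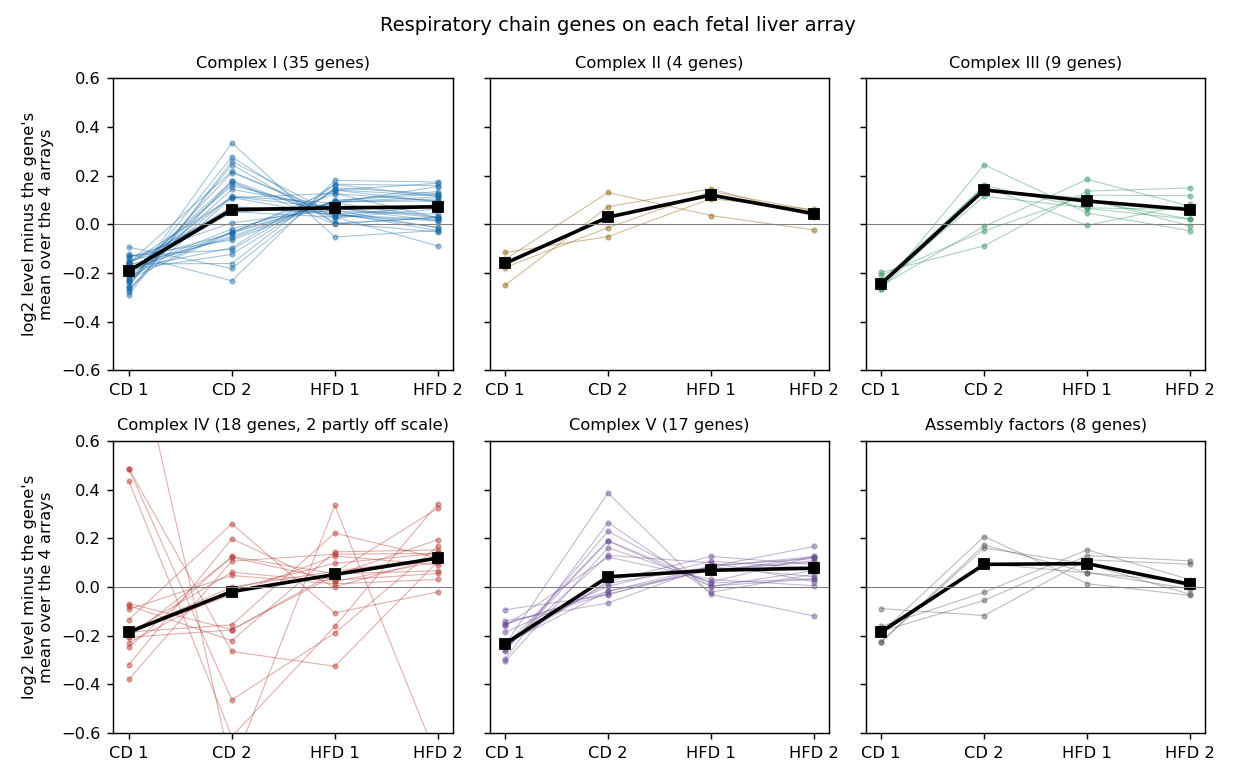
Log2 level of each tested respiratory chain gene on each array, minus the gene's mean over the 4 arrays (y axis, log2), in 6 panels for complexes I to V and the assembly factors. Thin lines join the values of 1 gene, and black squares are the medians over the genes of a panel. In each panel the median is lowest on CD replicate 1, from -0.24 in complex III to -0.16 in complex II. Of the complex IV genes, 2 run partly off the scale.

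Both HFD arrays were above both CD arrays for 41 of 91 members (45.1%), and both were below for 0. Over all tested genes the shares were 23.0% and 10.1%. Bright genes as a class went the same way as the members, with lower shares. Among the 1750 other genes of the brightest class, 40.4% had both HFD arrays above both CD arrays, CD replicate 1 was the lowest for 77.6%, and the median log2 difference was 0.10. Their median deviations were -0.18, 0.05, 0.06 and 0.05. For the 69 members of that class the share was 50.7% and the median difference 0.14, and for the 22 dimmer members 27.3% and 0.08. CD replicate 1 was the lowest for 97.1% of the 69 and 68.2% of the 22. The HFD mean was above the CD mean for 97.1% and 68.2%, against 79.0% of the other genes of the brightest class.

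Within each replicate number the members behaved differently. HFD replicate 1 was above CD replicate 1 for 87 of 91 members, by a median of 0.27, and HFD replicate 2 was above CD replicate 2 for 48, by a median of 0.03. Over all 18188 tested genes these medians were 0.09 and 0.02, and the counts 11080 and 9589. Among the 1750 other genes of the brightest class the medians were 0.24 and 0.0023, and the counts 1595 and 880. Without the 7 tested isoforms that are restricted to certain tissues or to low oxygen (Cox4i2, Ndufa4l2, Cox6a2, Cox6b2, Cox7a1, Cox7b2 and Cox8b), the difference between the replicate 1 arrays was above 0 for all 84 remaining members and narrow in its range, from 0.10 to 0.51 with an SD over genes of 0.07. Between the replicate 2 arrays it ran from -0.51 to 0.50 with an SD of 0.19, and 42 of the 84 were above 0. Without CD replicate 1 the median over all members was 0.02, and without CD replicate 2 it was 0.27. Without HFD replicate 1 or 2 it was 0.13 and 0.15.

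**Figure D3:**
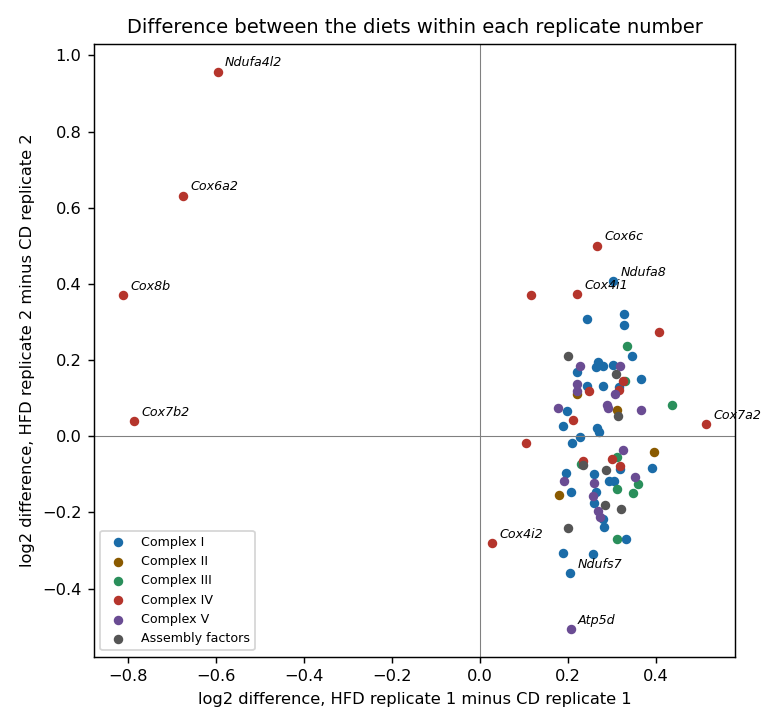
Difference between the diets within each replicate number for the 91 tested respiratory chain genes, as HFD replicate 1 minus CD replicate 1 (x axis, log2) against HFD replicate 2 minus CD replicate 2 (y axis, log2), coloured by complex. For most genes the x value lies in a narrow band above 0 and the y value on either side of 0. The genes to the left of 0 are Cox8b, Cox7b2, Cox6a2 and Ndufa4l2.

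Complex I, the NADH dehydrogenase and the largest of the complexes, had a median log2 difference of 0.13 over 35 genes. Of these, 32 were higher in the HFD arrays. Both HFD arrays were above both CD arrays for 16 (45.7%), against 23.0% of all tested genes and 40.4% of others in the brightest class. Ndufs1, which carries iron-sulphur clusters of the electron path, had log2 levels of 4.38, 4.93, 4.71 and 4.66. Its CD arrays enclosed both HFD arrays, and the difference was 0.03 ± 0.24 (limma SE of 2 arrays against 2). Ndufv1, the subunit that binds NADH, had levels of 5.46, 5.77, 5.72 and 5.67 and a difference of 0.08 ± 0.19. CD replicate 2 was the highest array in both of these genes. Ndufa8, an accessory subunit of the membrane arm, had levels of 3.59, 3.48, 3.89 and 3.88. Here the CD arrays lay close together below both HFD arrays, and the difference was 0.35 ± 0.16.

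The subunits of complex I did not share one order of the arrays. Chosen after their values were seen, Ndufs6 and Ndufs7 stood near the ends of the range. Ndufs6, an accessory subunit, had levels of 6.43, 6.43, 6.76 and 6.75, with near-equal CD arrays, near-equal HFD arrays and a gap of 0.32 between the diets. Ndufs7, a core subunit next to the coenzyme Q site, had levels of 5.38, 5.97, 5.59 and 5.61, with a gap of 0.59 between the CD arrays alone. Ndufa9 (CD replicate 2 minus CD replicate 1, 0.53), Ndufb2 (0.52) and Ndufa10 (0.45) were like Ndufs7. Ndufs8 (0.03), Ndufb6 (0.06), Ndufb3 (0.09) and the X-linked Ndufa1 (-0.09) were like Ndufs6. In all 35 genes HFD replicate 1 was above CD replicate 1, by 0.19 to 0.39. CD replicate 2 was the highest of the arrays for 16 of them.

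The printed windows were picked as pairs with opposite CD gaps, so their gaps are a description of that choice. With a YY1 core in both windows, the gap between the CD arrays (replicate 2 minus replicate 1) was 0.00 in Ndufs6 and 0.59 in Ndufs7. For the NRF1 core, the CD gap was -0.11 in Ndufa8 and 0.51 in Uqcrc1. Over the 74 members with a window, the median log2 difference between the diets was 0.17 in the 11 with an NRF1 core and 0.14 in the other 63. It was 0.18 in the 19 with an ETS and GABP core and 0.13 in the other 55, and 0.11 in the 11 with a YY1 core and 0.14 in the other 63.

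Complex II is succinate dehydrogenase, shared with the tricarboxylic acid cycle. All of its 4 subunits were higher in the HFD arrays, with a median log2 difference of 0.17. For 2, both HFD arrays were above both CD arrays, against 23.0% of all tested genes and 40.4% of others in the brightest class. Sdha, the flavoprotein that oxidises succinate, had levels of 4.76, 4.92, 5.07 and 4.99 and a difference of 0.19 ± 0.17. Sdhb, the iron-sulphur subunit, had levels of 5.70, 5.77, 5.92 and 5.88 and a difference of 0.17 ± 0.16. In both of these the HFD arrays were the higher ones, by less than the 95% interval. A dimmer probe of Sdha had a difference of -0.06, so the sign of Sdha rests on the choice of probe. The membrane anchors Sdhc (0.01) and Sdhd (0.18) had CD replicate 2 above an HFD array.

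Complex III, the cytochrome bc1 complex, had the widest median CD gap of the complexes. CD replicate 2 was above CD replicate 1 by a median of 0.38 over its 9 genes, and it was the highest array for 6 of them. The median log2 difference between the diets was 0.12, with 9 of 9 genes higher in the HFD arrays. Both HFD arrays were above both CD arrays for 3 (33.3%), against 23.0% of all tested genes and 40.4% of others in the brightest class. Cyc1, the cytochrome that hands electrons to cytochrome c, had levels of 4.79, 5.17, 5.14 and 5.03 and a difference of 0.10 ± 0.21. Uqcrfs1, the Rieske iron-sulphur protein, had levels of 4.72, 4.96, 5.15 and 5.04 and a difference of 0.26 ± 0.18. Both CD arrays were below both HFD arrays in Uqcrfs1, while in Cyc1 CD replicate 2 was the highest. Within the replicate 2 arrays the median over complex III was -0.07, and without CD replicate 1 the sign of its median turned (-0.09).

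Complex IV, cytochrome c oxidase, held the largest positive and the largest negative difference of the members. Its median log2 difference was 0.15 over 18 tested genes, with 14 higher in the HFD arrays. For 8 (44.4%), both HFD arrays were above both CD arrays, against 23.0% of all tested genes and 40.4% of others in the brightest class. Cox6c, a small subunit of most tissues, had levels of 5.90, 5.93, 6.17 and 6.43 and a difference of 0.38 ± 0.18. Cox5a, a subunit of the matrix side, had levels of 6.31, 6.47, 6.62 and 6.59 and a difference of 0.22 ± 0.17. In both genes the HFD arrays were above the CD arrays. At the other end, Cox7b2 had levels of -5.25, -7.12, -6.03 and -7.08, with only CD replicate 1 well above background, and its fitted difference of -0.37 ± 0.73 rests on arrays of which 3 were not well above background.

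The isoforms of complex IV that most tissues use had a higher mean in the HFD arrays, as most members did. In Cox4i1, unlike most members, CD replicate 2 was the lowest array. Cox4i1, the general form of subunit 4, had levels of 6.81, 6.67, 7.03 and 7.04 and a difference of 0.30 ± 0.16. Ndufa4, named for complex I and since placed in complex IV, had levels of 4.94, 4.97, 5.35 and 5.24 and a difference of 0.34 ± 0.16. Groups did not overlap in either gene, and the CD arrays lay close together. Cox7a2 had levels of 5.75, 6.24, 6.26 and 6.27, with CD replicate 1 alone at the low end and a difference of 0.27 ± 0.23. Cox6a1 (difference 0.18 ± 0.17) also had both HFD arrays on top. Cox6b1 (0.08 ± 0.19) and Cox8a (0.12 ± 0.20) had CD replicate 2 as the highest array.

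Among the restricted isoforms, Cox6a2, Cox8b and Ndufa4l2 took another order. Cox6a2, the form of heart and skeletal muscle, had levels of 2.13, 1.18, 1.46 and 1.82. Cox8b, also a muscle form, had levels of -0.30, -1.05, -1.11 and -0.68, and Ndufa4l2, a target of hypoxia-inducible factor (HIF) that takes the place of Ndufa4, had 0.26, -0.79, -0.34 and 0.17. All of these were highest on CD replicate 1, and their diet differences were -0.02 ± 0.37, -0.22 ± 0.33 and 0.18 ± 0.42, each smaller than the gap between the CD arrays. The sign of Cox6a2 turned without CD replicate 1 (0.45) and without HFD replicate 1 (0.16), that of Cox8b without CD replicate 1 (0.15), and that of Ndufa4l2 without CD replicate 2 (-0.34) and without HFD replicate 2 (-0.07). A list of 20 markers of skeletal and heart muscle, with none at background on any array, was also highest on CD replicate 1. Its summed level, in multiples of the 75th percentile, was 230.1, 125.9, 143.6 and 185.1, and 19 of its 20 genes were highest on CD replicate 1. Whether muscle in the samples had a part in these isoforms was not tested.

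Of the remaining isoforms, Cox4i2, the form of subunit 4 that low oxygen and HIF raise, had levels of -0.77, -0.38, -0.74 and -0.66. It was lowest on CD replicate 1 and highest on CD replicate 2, with a difference of -0.13 ± 0.21. Its sign turned without CD replicate 2 (0.07). Cox7a1, the muscle form of subunit 7a, had levels of 0.52, 0.77, 0.73 and 0.81 and a difference of 0.13 ± 0.18, lowest on CD replicate 1 as Cox7a2 was. Cox6b2, known from testis, had levels of 2.86, 2.76, 2.98 and 3.13, with both HFD arrays on top and a difference of 0.24 ± 0.17.

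**Figure D4:**
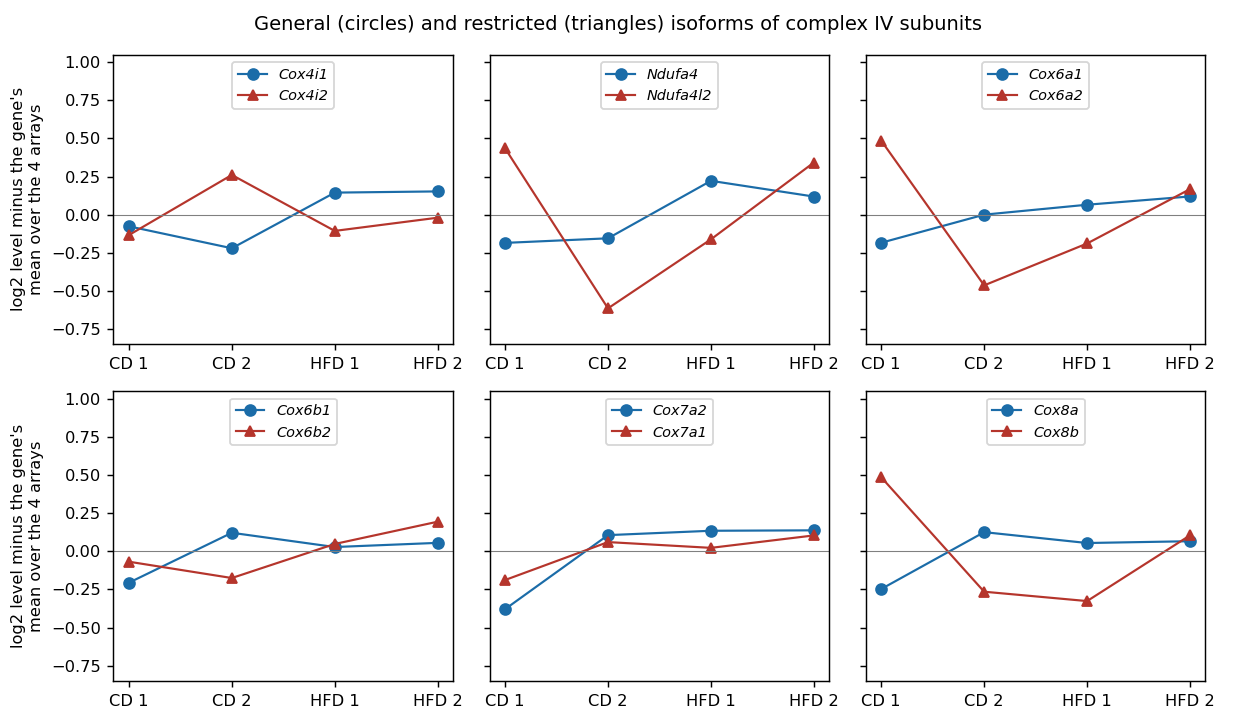
Log2 level minus the gene's mean over the 4 arrays (y axis) for the isoform pairs of complex IV on each array. Circles are the isoform of most tissues, triangles the restricted one, and lines join the values of 1 gene. Ndufa4l2, Cox6a2 and Cox8b are highest on CD replicate 1, where Ndufa4, Cox6a1 and Cox8a are at their lowest.

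Complex V, the ATP synthase, had a median log2 difference of 0.15 over 17 genes, with 16 higher in the HFD arrays. For 9 (52.9%), both HFD arrays were above both CD arrays, against 23.0% of all tested genes and 40.4% of others in the brightest class. CD replicate 1 was the lowest array for 17 of 17. Atp5b, the catalytic subunit, had levels of 7.43, 7.99, 7.71 and 7.78 and a difference of 0.03 ± 0.25. Atp5d, a subunit of the central stalk, had levels of 4.48, 5.10, 4.68 and 4.60 and the only negative difference of the complex, -0.15 ± 0.26. In both genes CD replicate 2 was the highest array, and in Atp5d the excess of CD replicate 2 over CD replicate 1, 0.62, was the largest of the members. The differences of complex V ran from -0.15 for Atp5d to 0.25 for Atp5mpl, a small membrane subunit. The genes for the c subunit of the rotor, which code for the same mature protein, were not alike in their CD gap, which was 0.49 in Atp5g1, 0.06 in Atp5g2 and 0.19 in Atp5g3.

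The 8 Nduf assembly factors, which build complex I without staying in it, had a median log2 difference of 0.09. CD replicate 1 was the lowest array for 7 of them, and the sign of the median turned without it (-0.05). Their differences ran from -0.02 for Ndufaf5 to 0.24 for Ndufaf2. Ndufaf8 had levels of 0.94, 0.92, 1.14 and 1.13, with groups that did not overlap.

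Genes around the respiratory chain were read from lists. Over all tested genes, 1.37% had an unadjusted p under 0.05 (limma) and were higher in the HFD arrays, and 1.46% were lower. No gene had an unadjusted p under 0.05 (limma) among 20 regulators of mitochondrial biogenesis (median log2 difference 0.08), 44 assembly factors of other names (0.12), 18 genes of the tricarboxylic acid cycle (0.08), 19 electron carriers and coenzyme Q enzymes (0.03), 10 carriers, channels and uncoupling proteins (0.09) or 17 HIF targets and regulators tied to respiration (0.14, Cox4i2 and Ndufa4l2 included). Among the regulators, Ppargc1a, which encodes PGC-1α, had a log2 difference of 0.16 ± 0.18 (limma SE) and Nrf1 one of 0.10 ± 0.19. The differences of Tfam, the activator of mitochondrial DNA transcription (0.05 ± 0.21), and Gabpa (0.09 ± 0.16) were no larger. CD replicate 1 was the lowest array for all 18 cycle genes and all 19 electron carrier genes, and CD replicate 2 exceeded it by medians of 0.42 and 0.43, against 0.25 in the members.

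Markers of the main cell types of fetal liver differed between the CD arrays as well. All 11 tested hepatoblast markers and all 13 tested erythroid markers were lowest on CD replicate 1, with median gaps between the CD arrays of 0.63 and 0.49. Their summed levels were 1779, 2785, 2204 and 2214 for hepatoblasts and 1858, 2638, 2121 and 2302 for erythroid cells, and none of them was at background on any array. Their medians between the diets were -0.0009 and 0.15. Markers of cells from outside the liver were read in the same way. Of 10 neuron markers, all above background, the 9 tested had a median of -0.73, with summed levels of 32.5, 22.1, 15.8 and 23.5. Of 16 trophoblast markers, 14 had a lower mean in the HFD arrays, 11 of them without overlap (against 10.1% of all tested genes). The median log2 difference was -3.85. Only 4 of the 16 passed the filters (8 failed on the CV and 4 on low signal), so this difference was not tested for the others, and the median of those 4 was -0.57. Tpbpa, a spongiotrophoblast marker, had log2 levels of 3.01, 4.80, 1.00 and -1.01. The summed level was 67.0, 79.8, 47.2 and 49.5, most of it Gcm1 on every array but CD replicate 2, and without Gcm1 it was 16.9, 60.4, 3.94 and 1.1. Both sums were highest on CD replicate 2. For kidney (7 of 10 tested) and germ cells (11 of 14) the medians of the tested genes were 0.25 and 0.51. Over all probed genes, those that failed the filters included, they were 0.48 and 0.88. Clear signal on every array was found for 8 of the 10 kidney genes but only 5 of the 14 germ cell genes. Sycp1, whose log2 difference of 0.51 is the median of the tested germ cell genes, had it on none. The germ cell medians therefore rest partly on signals at background and are not measured sizes of a change. The summed levels were 91.0 to 113.6 for kidney and 0.738, 0.870, 0.877 and 0.967 for germ cells. Most of the kidney sum was Eya1, and without it the sum was 8.50, 6.08, 9.15 and 9.83. The brightest germ cell gene was Prm1 (log2 difference -0.74), and without it the sum was 0.485, 0.466, 0.671 and 0.788. The median of the tested germ cell genes was 0.33 without HFD replicate 1 and 0.09 without HFD replicate 2. The genes of these lists past both cutoffs were Hormad1, Tex101 and Psg17. Hormad1 and Tex101 stood at background on both CD arrays and were at least 1.34-fold and 1.73-fold higher on the HFD arrays (limma adjusted p of 1.00 for both), and Psg17 had a log2 difference of -3.05 (adjusted p 1.00). The part of cell makeup in the levels of the respiratory chain genes was not tested.

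**Figure D5:**
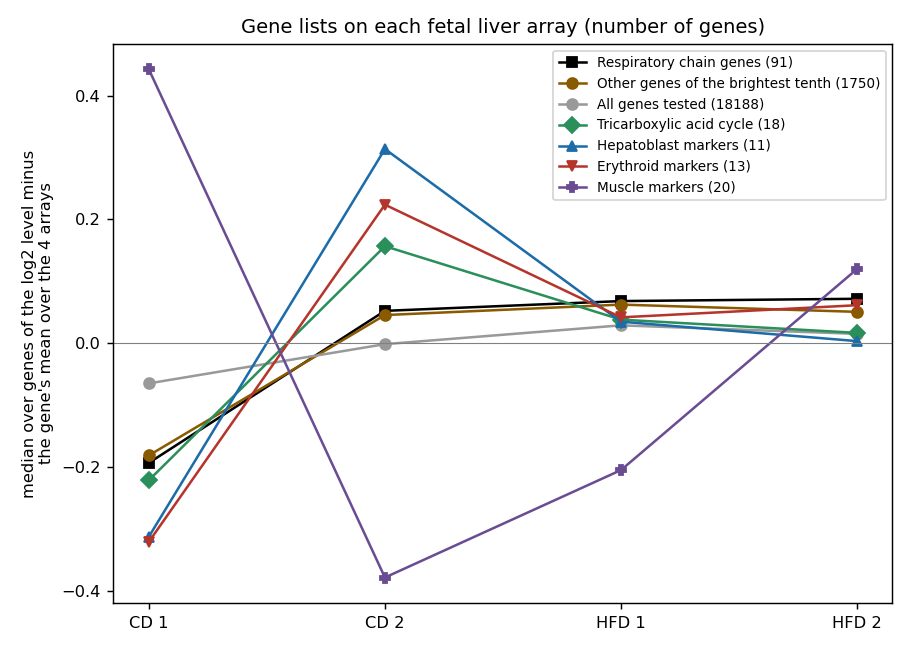
Median over the genes of a list of the log2 level minus the gene's mean over the 4 arrays (y axis), on each array, with the number of genes in brackets. Lines join the values of 1 list. The respiratory chain genes (-0.19, 0.05, 0.07 and 0.07) lie on the other genes of the brightest class (-0.18, 0.05, 0.06 and 0.05), hepatoblast and erythroid markers are lower on CD replicate 1 than on CD replicate 2, and muscle markers run the other way.

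Where a gene had more than 1 probe with clear signal on every array, the probes mostly had the same sign. There were 19 such members, the median gap between their probes in the log2 difference was 0.06, and the widest was 0.25, in Sdha. The sign differed between probes in 4 of them, Sdha, Atp5a1, Atp5b and Ndufa10.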

How the data were processed

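Total RNA of fetal livers was labelled with Cy3, hybridised to a mouse array and read with Agilent Feature Extraction 11.0.1.1, per the labels. The authors deposited, spot by spot, an intensity from which background and spatial trend had been removed, without scaling of one array to another. The deposited flags (a score of 0 or 1) mark outlier spots, saturated spots and spots with a signal well above background. A deposited table of normalized signal held the same intensities divided by 1 constant per array, within 0.1% for 100% of the probes with 1 spot.

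Here the log2 of the intensity was averaged over the unflagged spots of a probe, and the 75th percentile of the array was subtracted. A probe had to reach the 20th percentile of every array, keep an unflagged spot on each and have a linear CV of at most 50% under 1 diet or both, which 41332 probes did. The model was fitted with limma (3.58.1, under R 4.3.3) by lmFit and eBayes to all arrays with diet as its only term, and p-values were adjusted over all probes by Benjamini-Hochberg. Counts over genes use the brightest probe of each. RefSeq genes of GRCm38.p6 gave 32989 of 56605 probes 1 of 22907 symbols through their transcripts. Probe coordinates are left out because the array follows another build. Python 3.11.15 with pandas 2.3.3, numpy 2.4.6 and matplotlib 3.10.9 prepared and drew the values. The fit was also run on simulated arrays with the same spread for all probes, where 200 of 41332 probes were given a log2 change of 2. It put all 200 past both cutoffs and 0 others. This does not bear on smaller changes or on unequal spreads.

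The members, the gene lists and the rule for named genes were chosen with earlier results of these data known. The rule named the isoform pairs of complex IV, 8 core subunits, every member under an unadjusted p of 0.05, the 3 tested members with the largest positive and the 3 with the largest negative difference, and genes of the other lists past both cutoffs. Further members named here were chosen after their values were seen. Alternatives covered the scaling (quantile normalization), the background (normexp on the median spot brightness), the source (the deposited table), the floor (signals under 5 set to 5), the filters on dim probes and on the CV, the test (the t-test of the methods, also in Welch's form), the choice of probe (averaging all probes of a gene), the replicate number as a block, the set of members (without assembly factors or restricted isoforms), and each array left out. Slide could not be a block, as there was 1 slide. The number of arrays limits the precision.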

Additional observations from a re-analysis of the deposited data

How the results depend on the processing

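No member passed an adjusted p of 0.05 under any alternative run (lowest 0.225, by limma without CD replicate 1). The member median was above 0 under all of them, from 0.06 with quantile normalization to 0.14 without the restricted isoforms where no array was left out. Members at an unadjusted p under 0.05 were 2 with normexp (2.09% of all tested genes), 11 with the methods' t-test (6.22%), 4 with Welch's correction (3.07%) and 0 to 4 with an array left out (17.3% of all genes without CD replicate 1, 15.1% without CD replicate 2, 2.17% without HFD replicate 1 and 1.87% without HFD replicate 2). Without CD replicate 1 these were Ndufa8, Cox4i1, Ndufs7 and Atp5d, the last 2 lower in the HFD arrays, without CD replicate 2 they were Ndufb10, Cox7a2 and Atp5c1, and with normexp Ndufa8 and Cox6c. Probes past both cutoffs, 318 as reported, were 33 with normexp, 845 without the filter on dim probes, 97 and 46 with the t-test without and with Welch's correction, and 654 to 1226 with an array left out.

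With the replicate number as a block, the count was 435 probes and 0 members. Deviations of same-numbered arrays correlated at -0.0997, so the number was not taken as a pairing, although same-numbered arrays share their sex-linked transcripts, and the replicate block changed no call of a member.

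Leaving out each array in turn moved the medians between a lowest and a highest value. The range was 0.016 to 0.27 for all members, 0.0005 to 0.27 for complex I, 0.063 to 0.24 for complex II, -0.088 to 0.31 for complex III, 0.13 to 0.25 for complex IV, 0.0505 to 0.28 for complex V and -0.049 to 0.25 for the Nduf assembly factors. It was -0.027 to 0.23 for the other assembly factors, -0.11 to 0.27 for the tricarboxylic acid cycle, -0.16 to 0.25 for electron carriers (-0.024 without HFD replicate 1), -0.093 to 0.30 for carriers and channels, -0.31 to 0.39 for hepatoblast markers, -0.14 to 0.35 for erythroid markers and -0.51 to 0.36 for muscle markers. The lowest or highest value came without CD replicate 1 or CD replicate 2 in all of these, and the lowest of complex IV without HFD replicate 2. For markers from outside the liver the range was -0.93 to -0.45 (neuron), -1.07 to -0.16 (the 4 tested trophoblast markers), 0.16 to 0.40 (kidney) and 0.093 to 0.56 (germ cell). The hepatoblast median, -0.0009 as reported, was 0.0007 with quantile normalization and 0.035 with all probes of a gene averaged.

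Among named genes, the range over left-out arrays spanned 0 for Cox4i2 (-0.32 to 0.071), Ndufa4l2 (-0.34 to 0.70), Cox6a2 (-0.50 to 0.45), Cox6b1 (-0.080 to 0.25), Cox8a (-0.065 to 0.31), Cox8b (-0.60 to 0.15), Ndufs1 (-0.24 to 0.31), Ndufv1 (-0.073 to 0.23), Cyc1 (-0.092 to 0.29), Atp5b (-0.25 to 0.31), Cox7b2 (-1.31 to 0.56) and Atp5d (-0.46 to 0.16). The other 12 kept their sign. Quantile normalization also turned Ndufs1 (-0.066), Ndufv1 (-0.0029) and Atp5b (-0.0009), and normexp turned Ndufs1 (-0.0049). The cause of these changes was not tested, beyond the arrays left out. The number of arrays limits what can be seen. A typical member's 95% interval by limma reached 0.48 to either side on the log2 scale, further than the largest difference of a member (0.38).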
